A study of Mus musculus with 6 samples.

Results

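miR-101a and miR-101b are close copies of one brain-abundant microRNA, and their levels were set side by side in mouse brain after cerebral ischemia-reperfusion and after a sham operation. The rows were chosen by name, as those starting with miR-101a-, miR-101b- or miR-101c, which gave 4 of the 622 miRNA names in the count tables: mmu-miR-101a-3p, mmu-miR-101b-3p, mmu-miR-101c and mmu-miR-101a-5p. The topic was selected from earlier results of the same comparison, and the rule names the share of counts and the ratios described here, so the differences between groups are given as a description with their spread, and no p-value is given for these rows. For a repeated name the row with the highest total count was to be kept, but none of the 4 names was repeated. miR-101b-5p was not analysed here.

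All 6 small RNA libraries came from brain of the inbred mouse strain C57BL/6J. The GCI group (libraries 1, 2 and 3) had both carotid arteries ligated for 20 minutes and is the series' cerebral ischemia-reperfusion group. The Sham group (libraries 3, 6 and 7) is labelled as the sham operation with no treatment. The labels used here give no sex, age, brain region or reperfusion time, and do not say that each library is a separate mouse, so the spread between libraries may be partly technical. With 1 row kept per name, library totals were 1559288 to 2023475 counts in GCI and 1423905 to 1750612 in Sham. Shares of counts below refer to these totals. Over all rows, repeated names included, the totals were 2114319 to 2903601 in GCI and 2147520 to 2639616 in Sham, so shares of those would be lower. Neuronal miRNAs marked the tissue as brain, with miR-124-3p at 14730 ± 2307 CPM (counts per 1000000 counts of a library) in GCI and 18279 ± 2467 CPM in Sham (SD, n = 3 each).

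A microRNA is cut from a hairpin-shaped precursor, and one strand of the resulting duplex, the guide, is loaded into an Argonaute protein, while the other, the passenger, is mostly degraded. Bases 2 to 8 of the guide, the seed, pair with target mRNAs. miR-101 is conserved among vertebrates and is known for repressing the histone methyltransferase Ezh2, cyclooxygenase 2 (Ptgs2) and the amyloid precursor protein App, and in mouse neurons for restraining network excitability during development.

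The mature sequences, from RefSeq on GRCm38.p6, are shown because the comparison of these names turns on how few bases separate them. They run 5′ to 3′ with the annotated seed in capitals. miR-144-3p, a miRNA of red blood cells with a similar start, is set beside them.
miR-101a-3p: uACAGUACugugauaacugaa
miR-101b-3p: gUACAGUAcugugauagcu
miR-101c: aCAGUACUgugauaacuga
miR-144-3p: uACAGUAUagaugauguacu
miR-101a-5p: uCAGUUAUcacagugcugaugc
The annotated miR-101b-3p starts 1 base before miR-101a-3p, so their annotated seeds are the same stretch shifted by 1 base. Over the 18 bases they share they differ by 1 substitution, A16G, counted from the first base of miR-101a-3p. The whole of miR-101c equals bases 2 to 20 of miR-101a-3p, so a miR-101a-3p read trimmed at both ends cannot be told apart from miR-101c. None of the 3 annotated seeds recurs in another of the 1679 mature names of that table. miR-144-3p shares the first 7 bases of miR-101a-3p and differs from it after them.

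The hairpins show where these strands come from. In each, the annotated arms are in capitals.
Mir101a: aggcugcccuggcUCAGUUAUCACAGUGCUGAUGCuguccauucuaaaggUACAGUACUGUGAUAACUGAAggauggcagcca
Mir101b: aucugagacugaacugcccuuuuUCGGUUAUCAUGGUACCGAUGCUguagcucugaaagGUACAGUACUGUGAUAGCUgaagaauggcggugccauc
Read over all 21 bases of miR-101a-3p, the Mir101b hairpin differs by 1 base, so that base alone separates reads of the 3′ arms that start at the same position. The annotated 5′ arms differ at 5 of the 22 bases compared. Mir101a lies on the minus strand of chromosome 4 (GRCm38, 101346945 to 101347027) and overlaps an exon of the long noncoding RNA gene E130102H24Rik on the same strand. Mir101b lies on the plus strand of chromosome 19 (29135279 to 29135375) in an intron of Rcl1, a protein-coding gene of ribosomal RNA processing. Mir101c lies on the minus strand of chromosome 9 (3038669 to 3038743) outside other annotated genes. The sources used here do not give the build behind the deposited counts or the mismatches allowed in mapping, so reads of these names could have been split between them.

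miR-101a-3p was among the most abundant miRNAs in both groups. It held 10.7%, 6.62% and 8.15% of counts in GCI libraries 1, 2 and 3, and 8.61%, 7.50% and 8.12% in Sham libraries 3, 6 and 7. It ranked 2, 4 and 3 in the GCI libraries and 4, 4 and 5 in the Sham libraries. GCI library 1 was the highest and GCI library 2 the lowest of all 6, so the Sham values lay inside the GCI range. The 95% Wilson intervals, which cover counting error only, were 6.58% to 6.66% for GCI library 2 and 10.7% to 10.8% for GCI library 1, far narrower than the distance between these libraries.

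miR-101b-3p, the copy from the Rcl1 intron, held 4.18%, 2.97% and 3.69% of counts in GCI libraries 1, 2 and 3, and 4.05%, 3.76% and 3.80% in Sham libraries 3, 6 and 7. It ranked between 5 and 7 in every library. As for miR-101a-3p, GCI library 1 was the highest and GCI library 2 the lowest, and the groups overlapped. The order of the levels was the same in all 6 libraries, with miR-101a-3p above miR-101b-3p, then miR-101c, then miR-101a-5p, and no value of one name reached the range of the next. Ligation during library preparation favours some end sequences, so the distance between names is one of counts and not of molecules.

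miR-101c, at about a hundredth of the miR-101a-3p counts, had 2005, 1456 and 2301 reads in GCI libraries 1, 2 and 3, and 2122, 1552 and 2091 reads in Sham libraries 3, 6 and 7. These are 0.129%, 0.0895% and 0.114% of the GCI libraries and 0.129%, 0.109% and 0.119% of the Sham libraries, again with overlap. Since its sequence lies wholly inside miR-101a-3p, this row is no independent measure of the Mir101c hairpin.

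**Figure D1:**
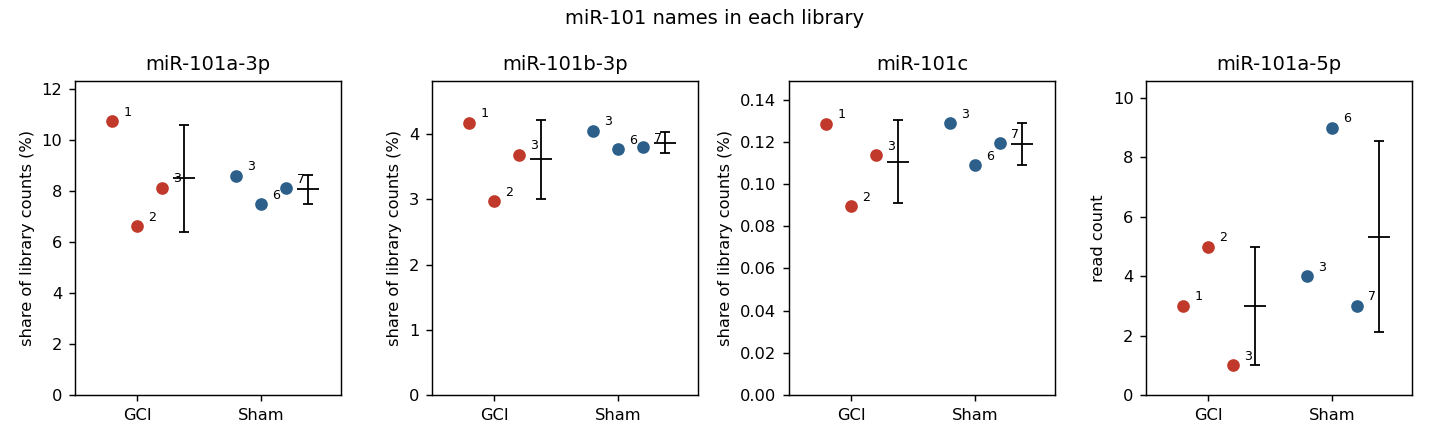
Share of library counts (percent, from 0) of miR-101a-3p, miR-101b-3p and miR-101c, and read counts of miR-101a-5p, in the 3 GCI libraries (left, red) and 3 Sham libraries (right, blue). Each point is a library marked by its number, and the black bar is the mean with SD. For all 4 names the groups overlap, and for the first 3 the GCI libraries spread more widely than the Sham libraries.

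Scaled by the trimmed mean of M-values (TMM), miR-101a-3p averaged 86283 ± 23239 CPM in GCI and 79971 ± 6194 CPM in Sham (SD, n = 3 each). Its log2 difference, GCI minus Sham, was 0.11 ± 0.25 (SE) with a 95% interval of −0.45 to 0.67. miR-101b-3p averaged 36580 ± 6739 CPM in GCI and 38321 ± 1671 CPM in Sham, a log2 difference of −0.067 ± 0.22 with an interval of −0.55 to 0.42. miR-101c averaged 1120 ± 217 CPM in GCI and 1180 ± 108 CPM in Sham, a log2 difference of −0.076 ± 0.20 with an interval of −0.54 to 0.38. Each difference was smaller than its SE, and the intervals leave room for changes of either sign. Without GCI library 1 the log2 difference of miR-101a-3p was −0.11, and without GCI library 2 it was 0.26.

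Of the 3 miR-101 names that passed the filter on low counts, 0 were called by edgeR's quasi-likelihood test and 0 had groups without overlap. Over all 440 tested miRNAs, 10 (2.27%) were called at an adjusted p under 0.05 and 96 (21.8%) had groups without overlap in CPM. The fourth name, miR-101a-5p, was too low to be tested.

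**Figure D2:**
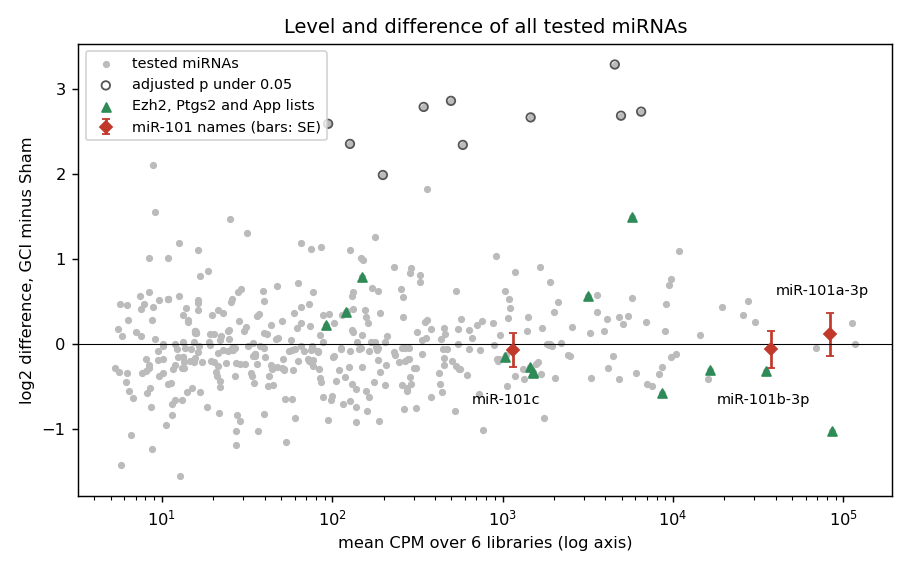
Mean CPM over 6 libraries (log axis) against the log2 difference, GCI minus Sham, for the 440 tested miRNAs (gray). Rings mark the 10 called ones, triangles the members of the Ezh2, Ptgs2 and App lists, and red diamonds miR-101a-3p, miR-101b-3p and miR-101c with their SE. The 3 miR-101 names lie close to the zero line at the abundant end, with bars that cross it.

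In brain tissue as a whole, fewer cells of a type and less RNA per cell cannot be told apart. The spread within the groups was uneven. For miR-101a-3p the SD of log2 CPM was 0.38 in GCI and 0.11 in Sham, for miR-101b-3p 0.27 in GCI and 0.063 in Sham, and for miR-101c 0.28 in GCI and 0.13 in Sham. Pooled within groups these were 0.28, 0.19 and 0.22, and the median over the 82 miRNAs of at least 1000 CPM was 0.27. Shares also depend on what else filled the library. miR-26a-5p, another abundant miRNA, held 1.34%, 12.8% and 2.48% of GCI libraries 1, 2 and 3, and 9.76%, 13.4% and 11.6% of Sham libraries 3, 6 and 7. With miR-26a-5p left out of the totals, a setting chosen after seeing the data, miR-101a-3p held 10.9%, 7.59% and 8.35% of the GCI libraries and 9.54%, 8.66% and 9.19% of the Sham libraries, and the groups still overlapped. miR-101b-3p then held 4.23%, 3.41% and 3.78% of the GCI libraries and 4.49%, 4.35% and 4.29% of the Sham libraries, where all 3 GCI values lay below all 3 Sham values. How many of all miRNAs separate with these totals was not computed. In TMM-scaled CPM, the groups overlapped for miR-101b-3p and did not overlap for 96 (21.8%) of the 440 tested miRNAs.

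The ratio of miR-101a-3p to miR-101b-3p, which needs no scaling between libraries, was higher in every GCI library than in any Sham library. It was 2.57, 2.23 and 2.21 in GCI libraries 1, 2 and 3, and 2.12, 1.99 and 2.14 in Sham libraries 3, 6 and 7. The group means were 2.34 ± 0.20 in GCI and 2.08 ± 0.082 in Sham (SD, n = 3 each), a log2 difference of 0.16, or 1.12-fold, against a pooled SD of 0.096 within groups. GCI library 1 carried much of it, and without that library the log2 difference was 0.090. The nearest values were those of GCI library 3, with a 95% counting interval of 2.19 to 2.23, and Sham library 7, with 2.12 to 2.16. This ratio was one of the measures named when the topic was chosen, so the absence of overlap is a description.

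Ratios between other names of one family give the setting for this value. Among 145 pairs of tested names that differ only in the letter after the number, such as let-7c-5p and let-7f-5p, the groups did not overlap for 33 (22.8%). The median absolute log2 difference over the 145 pairs was 0.26, and 88 pairs had a larger one than miR-101a-3p to miR-101b-3p. Of 42 pairs in which both names averaged at least 1000 CPM, 28 had a larger one, and 2 had a smaller spread within groups. The groups did not overlap for 16 of these 42 pairs. The shift in the miR-101 ratio was thus smaller than the median shift of the 145 pairs. Pairs of one family share names and are not independent. Some pairs, such as miR-199a-3p and miR-199b-3p, had the same counts in every library. They could not separate the groups, so they lower the share without overlap and the median over the 145 pairs.

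**Figure D3:**
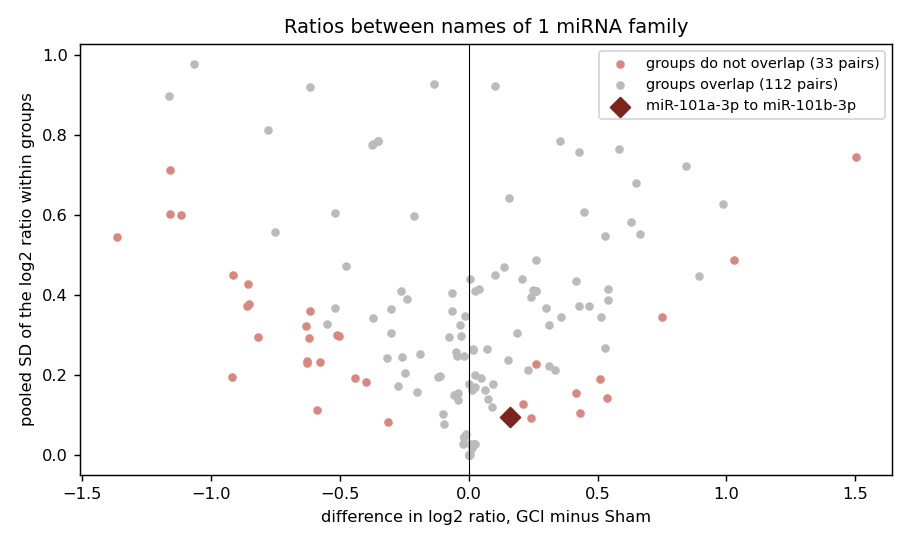
Difference in log2 ratio, GCI minus Sham, against the pooled SD of the log2 ratio within groups, for 145 pairs of names of 1 miRNA family. Pairs whose groups do not overlap are red (33) and the others gray; the diamond is miR-101a-3p to miR-101b-3p, at a small positive difference of 0.16 and a low spread of 0.096.

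The ratio of miR-101c to miR-101a-3p, whose sequence contains it, separated the groups, while its ratio to miR-101b-3p did not. miR-101c counts were 1.20%, 1.35% and 1.40% of miR-101a-3p counts in GCI libraries 1, 2 and 3, and 1.50%, 1.45% and 1.47% in Sham libraries 3, 6 and 7, without overlap. The log2 difference of this ratio was −0.17 with a pooled SD of 0.084, and −0.10 without GCI library 1. Of the 145 family pairs, which do not include the miR-101c ratios, 33 (22.8%) had groups without overlap. Against miR-101b-3p, miR-101c counts were 3.08%, 3.01% and 3.08% in GCI libraries 1, 2 and 3, and 3.18%, 2.90% and 3.15% in Sham libraries 3, 6 and 7. Here the groups overlapped, with a log2 difference of −0.0071. The log2 ratio of miR-101c to miR-101a-3p equals its log2 ratio to miR-101b-3p minus that of miR-101a-3p to miR-101b-3p. Its separation of the groups is therefore no second result beside that of the miR-101a-3p to miR-101b-3p ratio. Across the 6 libraries, Pearson's r of log2 CPM was 0.98 between miR-101c and miR-101b-3p, 0.89 between miR-101c and miR-101a-3p, and 0.89 between miR-101a-3p and miR-101b-3p. These coefficients describe 6 points that share library totals, and the names may share reads.

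**Figure D4:**
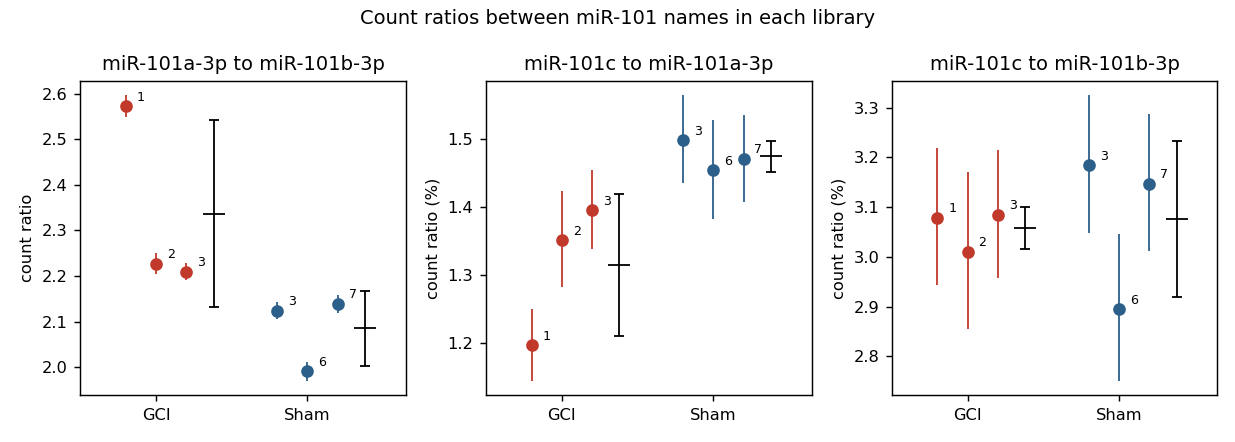
Count ratios in the 3 GCI (left, red) and 3 Sham (right, blue) libraries: miR-101a-3p to miR-101b-3p, and miR-101c as a percentage of miR-101a-3p and of miR-101b-3p. Points are libraries marked by number with 95% exact counting intervals, black bars are means with SD, and the axes do not start at 0. The first ratio is higher and the second lower in all GCI libraries, while the third overlaps.

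Nearly all reads of the miR-101a hairpin came from its guide strand. The passenger miR-101a-5p had 3, 5 and 1 reads in GCI libraries 1, 2 and 3, and 4, 9 and 3 reads in Sham libraries 3, 6 and 7. The guide to passenger ratio was 55843, 21548 and 164841 in the GCI libraries and 35392, 11860 and 47383 in the Sham libraries. With 1 to 9 passenger reads these ratios are loose, with an exact 95% interval of 19108 to 270792 in GCI library 1 and 6248 to 25938 in Sham library 6. Summed within groups, 440111 guide and 9 passenger reads gave 48901 in GCI (interval 25760 to 106944), and 390460 guide and 16 passenger reads gave 24404 in Sham (interval 15027 to 42695). The library ratios of the groups overlapped. The intervals of the sums also overlapped, but they leave out the spread between libraries, so this is no test of a difference. With so few passenger reads, no difference in strand choice can be read from these values.

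The strand ratio of miR-101a was the highest of the 175 hairpins with both arms listed, over counts summed from all 6 libraries. It was 33223, followed by miR-381 at 8693 and miR-21a at 3241, and the median was 9.96. Among the 48 hairpins whose larger arm reached 1000 CPM, the median was 100.3 and miR-101a again ranked 1. The smaller arm was under 3 counts in 0 of the 175 pairs. Hairpins without both arms under matching names, miR-101b among them, were not ranked, and some of them could have a larger ratio. A ratio this large needs an abundant guide to be seen at all, and the trimming and mismatches allowed in counting the arms are not known here.

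**Figure D5:**
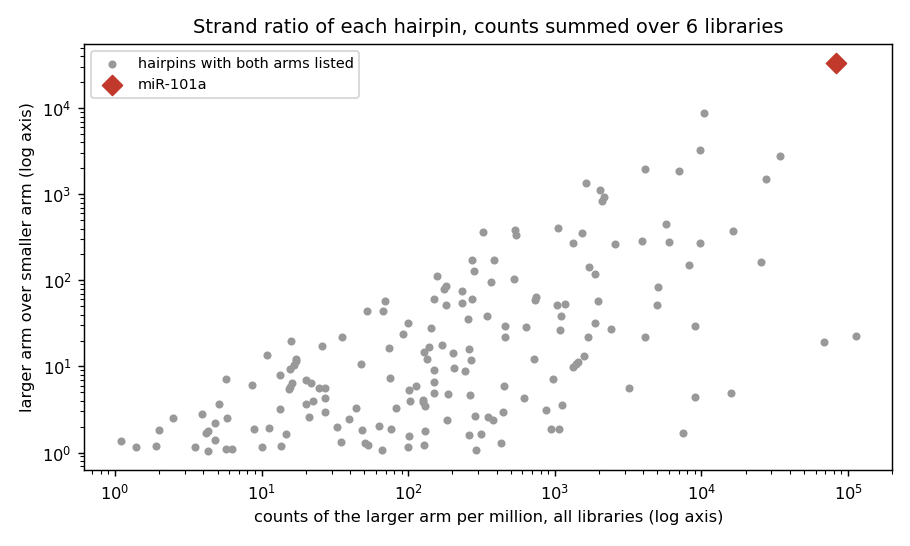
CPM of the larger arm (log axis) against the ratio of the larger to the smaller arm (log axis) for 175 hairpins, from counts summed over 6 libraries. miR-101a, the red diamond, stands at the top with 33223 and is also among the most abundant.

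miR-101a-3p is poor in G and C. Its GC content was 33.3%, that of miR-101b-3p was 42.1%, and the median of the 371 tested miRNAs with a RefSeq sequence (84.3% of those tested) was 47.6%. In that set, 24 miRNAs had a GC content at or under that of miR-101a-3p.

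The miRNAs whose log2 CPM moved most like miR-101a-3p over the 6 libraries, among 399 tested names of at least 10 CPM, were miR-582-3p (Pearson's r 0.99), miR-5121 (0.98), miR-380-5p (0.96), miR-206-3p (0.94) and miR-194-5p (0.92). For miR-101b-3p they were miR-361-5p (0.96), let-7f-1-3p (0.93), miR-410-3p (0.90), miR-5121 (0.89) and miR-582-3p (0.87). miR-5121 and miR-582-3p stood in both lists. miR-582-3p averaged 479 ± 156 CPM in GCI and 421 ± 45.5 CPM in Sham (SD, n = 3 each), with the same wider spread in GCI. These are the highest of many coefficients over 6 points that share library scaling.

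miR-144-3p, which shares the start of miR-101a-3p, was far lower, at 20.1, 18.7 and 28.0 CPM in GCI libraries 1, 2 and 3 and 21.6, 22.6 and 21.3 CPM in Sham libraries 3, 6 and 7. Its groups overlapped, with a log2 difference of 0.040 ± 0.25 (SE).

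Other miRNAs known to repress the targets of miR-101 were read beside it. Of 6 miRNAs listed for Ezh2 other than miR-101, 5 were tested and 0 passed in either direction. All 5 had negative log2 differences, with a median of −0.35. Over all tested miRNAs the median was −0.055, so a negative sign was common. Of the 5 tested for Ezh2, miR-124-3p and miR-138-5p are also on the list of 5 neuronal markers. The differences of the neuronal markers were likewise all negative, with a median of −0.34. The part of neuronal content in the Ezh2 list was not tested. miR-138-5p, a neuronal miRNA, measured 1331 ± 161 CPM in GCI and 1695 ± 203 CPM in Sham, and the groups did not overlap. Its log2 difference was −0.35 ± 0.19 (SE), with an adjusted p of 0.353 by edgeR over all tested miRNAs. Groups without overlap were seen for 96 (21.8%) of the 440 tested miRNAs. miR-26b-5p measured 6879 ± 2285 CPM in GCI and 10245 ± 1932 CPM in Sham, and edgeR gave −0.57 ± 0.29 on the log2 scale with an adjusted p of 0.311. For miR-26a-5p the log2 difference was −1.03 ± 0.69 (SE), with an edgeR adjusted p of 0.437. Its groups overlapped, as GCI library 2, at 130209 CPM, lay within the Sham values of 96420 to 131052 CPM. miR-214-3p had too few reads to be tested.

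Of 5 miRNAs listed for Ptgs2, 5 were tested, 0 passed, and 2 had negative differences, with a median log2 difference of 0.57. miR-199a-3p measured 272, 127 and 169 CPM in GCI libraries 1, 2 and 3 and 114, 105 and 109 CPM in Sham libraries 3, 6 and 7, without overlap. By edgeR this was 0.79 ± 0.28 on the log2 scale with an adjusted p of 0.209. The groups overlapped for the rest of the list. Their log2 differences were −0.33 for miR-143-3p, −0.57 for miR-26b-5p, 0.57 for miR-16-5p and 1.49 for miR-146a-5p. miR-26b-5p is also on the Ezh2 list, and miR-16-5p also on the App list. Of 5 listed for App, 5 were tested, 0 passed, and 2 had negative differences, with a median of 0.22. miR-20a-5p measured 136 ± 19.8 CPM in GCI and 105 ± 8.98 CPM in Sham, and these groups did not overlap. The edgeR log2 value was 0.38 ± 0.20, with an adjusted p of 0.343. For the rest of the App list the groups overlapped. Their log2 differences were 0.57 for miR-16-5p, 0.22 for miR-17-5p, −0.16 for miR-106b-5p and −0.34 for miR-153-3p.

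Marker miRNAs of other cell types were summed per library beside these results. The 8 markers listed as epithelial summed to 22069 to 50923 CPM in GCI and 1982 to 7191 CPM in Sham, and the 3 of choroid plexus and ependyma to 2326 to 3504 CPM in GCI and 1661 to 2058 CPM in Sham, both without overlap. All 8 listed as epithelial were called higher in GCI by edgeR, where 10 (2.27%) of the 440 tested miRNAs were called. The list was chosen with earlier results of these data known, and the cells behind these miRNAs were not tested. The choroid plexus and ependyma sum was mostly miR-34c-5p, a miRNA of ciliated cells, at 2375 ± 680 CPM in GCI and 1439 ± 192 CPM in Sham. The choroid plexus marker miR-204-5p had the lower mean in GCI, 373 ± 62.2 CPM, against 473 ± 42.5 CPM in Sham. The 5 neuronal markers summed to 86699 to 96925 CPM in GCI and 92455 to 108898 CPM in Sham, mostly of miR-9-5p. All 5 had negative log2 differences, with a median of −0.34, 0 passed, and the groups did not overlap for miR-128-3p and miR-138-5p. Of all 440 tested miRNAs, 96 (21.8%) had groups without overlap. The 3 of oligodendrocytes summed to 878 to 2295 CPM in GCI and 861 to 898 CPM in Sham, and the 5 of leukocytes and microglia to 419 to 740 CPM in GCI and 411 to 484 CPM in Sham. The 4 of red blood cells summed to 409 to 558 CPM in GCI and 394 to 458 CPM in Sham, and the 3 of the vessel wall to 26147 to 44425 CPM in GCI and 34698 to 49336 CPM in Sham. Single markers in these lists also separated the groups. The leukocyte marker miR-155-5p had a log2 difference of 1.30 ± 0.39 (SE, edgeR adjusted p 0.133). For the red blood cell marker miR-486a-5p it was 1.01 ± 0.29 (adjusted p 0.128). In the same lists, miR-223-3p (−0.96) and miR-451a (−0.17) had negative differences, with overlap. No marker was at 0 in any library. Only the first 2 lists had sums without overlap, as had the miR-101a-3p to miR-101b-3p ratio, and their part in that ratio was not tested.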

How the data were processed

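From 1 µg of total RNA of each of 6 mouse brain samples, NEBNext small RNA libraries were made for inserts of 15 to 35 nt, per the labels' protocols. The tools cutadapt and Bowtie are named, per the submitters' processing notes, without versions or parameters. The deposited values are raw read counts per mature miRNA row, and all 6 columns were used. Tables held 727 rows and 622 names; for each of 50 repeated names, only the row of highest total entered.

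The tests used edgeR 4.0.16 under R 4.3.3 (quasi-likelihood test on group, filterByExpr with a minimum count of 10 and total of 15, TMM scaling, Benjamini-Hochberg adjustment, threshold 0.05), which was tested on simulated data. The filter left 440 names. CPM are counts over TMM-scaled totals. Ratios used raw counts. Alternatives were other scalings and filters, DESeq2 1.42.0, summed repeated rows, other totals and each library left out in turn. The limit of 3 counts that a count of 0 allows equals 1.48 to 2.11 CPM; this limit and the intervals cover counting error only. The members and the lists of miRNAs were chosen with earlier results of these data known. The text names all miR-101 rows, the 5 names most like each guide strand (log2 of CPM plus 0.5), and members of the lists.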

Additional observations from a re-analysis of the deposited data

How the results depend on the processing

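No paired analysis was possible because the groups share only 1 library number. Over the 8 other settings of scaling, filter, tool, repeated rows and totals, the log2 difference of miR-101a-3p ranged from 0.074 to 0.17, that of miR-101b-3p from −0.10 to −0.0039 and that of miR-101c from −0.11 to −0.012. With single libraries left out they ranged from −0.11 to 0.26, from −0.20 to 0.051 and from −0.21 to 0.051; every shift was within the SD between libraries. The difference, GCI minus Sham, in the log2 ratio of miR-101a-3p to miR-101b-3p ranged from 0.090 to 0.20, without a change of sign. For miR-101c to miR-101a-3p this difference ranged from −0.21 to −0.10, also without a change of sign. For miR-101c to miR-101b-3p it ranged from −0.050 to 0.019. The log2 guide to passenger ratio of miR-101a, GCI minus Sham, was 1.11 with all libraries and 0.36 to 1.82 with single libraries left out. The summed share of the 4 names differed by 0.16 percentage points, and by −1.25 to 1.43 with single libraries left out. It differed by −0.77 to 0.61 points with other totals. The number of miRNAs called, 10, was 4 with RLE size factors, 26 with DESeq2 and 0 to 100 with single libraries left out (0 without GCI library 3 or Sham library 6, with 57 and 44 at an unadjusted p under 0.05; 1 without GCI library 1; 100 without GCI library 2); the cause was not tested. No difference is given for miR-101a-5p, which has too few reads, or for miR-101b-5p, which was not analysed here. Leaving miR-26a-5p out was added after seeing the data, as were the single-library values of the miR-101c ratios.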

Other observations

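Among the family ratios computed as the setting for miR-101, that of let-7c-5p to let-7f-5p, singled out after its values were seen, moved further with a similarly small spread. It was 0.387, 0.440 and 0.416 in GCI libraries 1, 2 and 3, and 0.660, 0.648 and 0.561 in Sham libraries 3, 6 and 7, without overlap. The means were 0.414 ± 0.027 in GCI and 0.623 ± 0.054 in Sham (SD, n = 3 each), a log2 difference of −0.59 against a pooled SD of 0.11. Of the 42 pairs with both names at 1000 CPM or more, 16 had groups without overlap. The shift was not particular to this pair. let-7c-5p to let-7g-5p (−0.63), let-7c-5p to let-7i-5p (−0.63) and let-7a-5p to let-7f-5p (−0.58) also had groups without overlap. For let-7b-5p to let-7f-5p (−0.27) the groups overlapped.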
